A study of Mus musculus with 6 samples.

Results

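The forkhead (Fox) genes described here are those whose gene name in the scanner files is Fox, a letter from a to s and a number, leaving out Foxa2, Foxd3, Foxh1, Foxc1 and Foxc2, which belong to named lineage sets. This gave 33 genes with 49 probes, of 41174 probes on the array. The 33 genes include 29 that were measured well enough to be tested, through 40 of the 49 probes, among 20118 genes tested in all. The probes that did not enter numbered 9. They are all the probes of 4 genes that were not tested (Foxe1, Foxi1, Foxn4 and Foxp3), and second or further probes of Foxj3, Foxk2, Foxn2, Foxo3 and Foxp2. A probe entered where all 3 arrays of at least 1 group had it well above background. Gene expression was compared between mouse embryonic stem (mES) cells, derived from blastocysts, and epiblast stem cells (EpiSC), derived from the epiblast once the embryo has implanted. The mES samples were the lines ESF122 (replicate 1), ESF175/1 (replicate 2) and a line that is ESF58/2 in its title and ESF58/1 in another label (replicate 3). The EpiSC samples were the line EpiSC-5 (replicate 1) and the line EpiSC-7 at passages 20 (replicate 2) and 25 (replicate 3), so that 3 samples stand for 2 lines. All 6 cultures grew on irradiated mouse embryonic fibroblasts (MEFs), and so each RNA also holds what the feeder cells contributed. The protocols give KSR medium for both, with LIF for mES cells and FGF2 for EpiSC, and no genetic modification or treatment is labelled.

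Forkhead proteins are transcription factors that share a winged-helix DNA-binding domain and recognise a short core motif. Some act early on closed chromatin in the endoderm (the FOXA proteins), some respond to Hedgehog ligands in gut and head mesenchyme (the FOXF proteins), and some pattern the neural tube and other ectoderm (FOXB, FOXD, FOXI). Others are present in most cells and are controlled by growth factor signalling (FOXO), by the cell cycle (FOXM1) or through chromatin complexes (FOXK). Mouse ES cells resemble the epiblast before implantation, and EpiSC the later epiblast, from which the germ layers form.

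Levels are given as log2 of the processed signal minus the array's 75th percentile, so that 0 is the 75th percentile of that array. A difference is EpiSC minus mES on this log2 scale, with limma's standard error, and a gene is called where its adjusted p over all genes was under 0.05. Levels of different genes come from different probes and are not compared with each other. Between 66.2% and 75.3% of probes were well above background on each array, and the precision is that of 3 arrays in each group. All 6 mES markers fixed for the label check were lower in EpiSC, and all 6 EpiSC markers were higher. The pluripotency genes Pou5f1, Sox2 and Nanog were well above background on all 6 arrays. The summed linear level of the measured fibroblast markers ranged from 17.5 to 105 in mES and from 11.0 to 123 in EpiSC. It covers 13 markers, but 12 on mES replicate 3 (105), where Col1a2 has no value. That sum is therefore not directly comparable with the others. Of the 13 markers, 0 were called. The low arrays were mES replicate 2 and EpiSC replicate 3. Of 9 measured endoderm markers 4 were higher (44.4%, Foxa2 among them, while Ttr and Afp did not enter). Of 8 neural markers 1 was higher (12.5%, Pax3, at least 2.11-fold), near the 11.4% of all genes called higher. Of 6 mesoderm markers 2 were lower (33.3%, against 15.1% of all genes), Tcf15 and Msgn1. The median of the 6 was -0.32, and Kdr went the other way without being called (adjusted p = 0.0633). The EpiSC and mES arrays lay on different slides and got different growth factors, which cannot be told apart from the cell type. In these bulk samples fewer cells of a type and less RNA per cell cannot be told apart either.

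Of the 29 forkhead genes tested, 6 were higher in EpiSC (Foxf2, Foxa1, Foxb1, Foxd4, Foxj1 and Foxk2) and 3 were lower (Foxf1, Foxi2 and Foxn2). Over all genes 11.4% were called higher and 15.1% lower, 26.5% in either direction, against 31.0% (9 of 29) of the forkhead genes, a share near the background. The median difference of the forkhead genes was 0.00, that of all genes was -0.13, and the median absolute differences were 0.53 and 0.51. The 3 values of each group did not overlap for 15 of the 29, where 48.8% of all genes had groups that do not overlap. Differences of at least 1 were seen for 5 of the 29 forkhead genes, all of them higher in EpiSC. In either direction, 4877 of all 20118 genes had such differences. Of the 5 forkhead genes, Foxf2, Foxa1, Foxb1 and Foxd4 entered through the EpiSC group alone, not being well above background on every mES array. All 3 decreases were under 1. With arrays scaled on their medians the calls were 7 higher and 1 lower, and with quantile normalization 7 higher and 2 lower. Over all genes 24.8% and 27.4% were called in these settings. Fits that left out 1 array called 5 to 7 forkhead genes higher and 0 to 2 lower, and 14.0% to 23.7% of all genes. The 2 lower, without mES replicate 3, were Foxe1 and Foxn4, which enter that fit but not the one on all arrays, and 0 of the 3 named above were called lower in it.

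**Figure D1:**
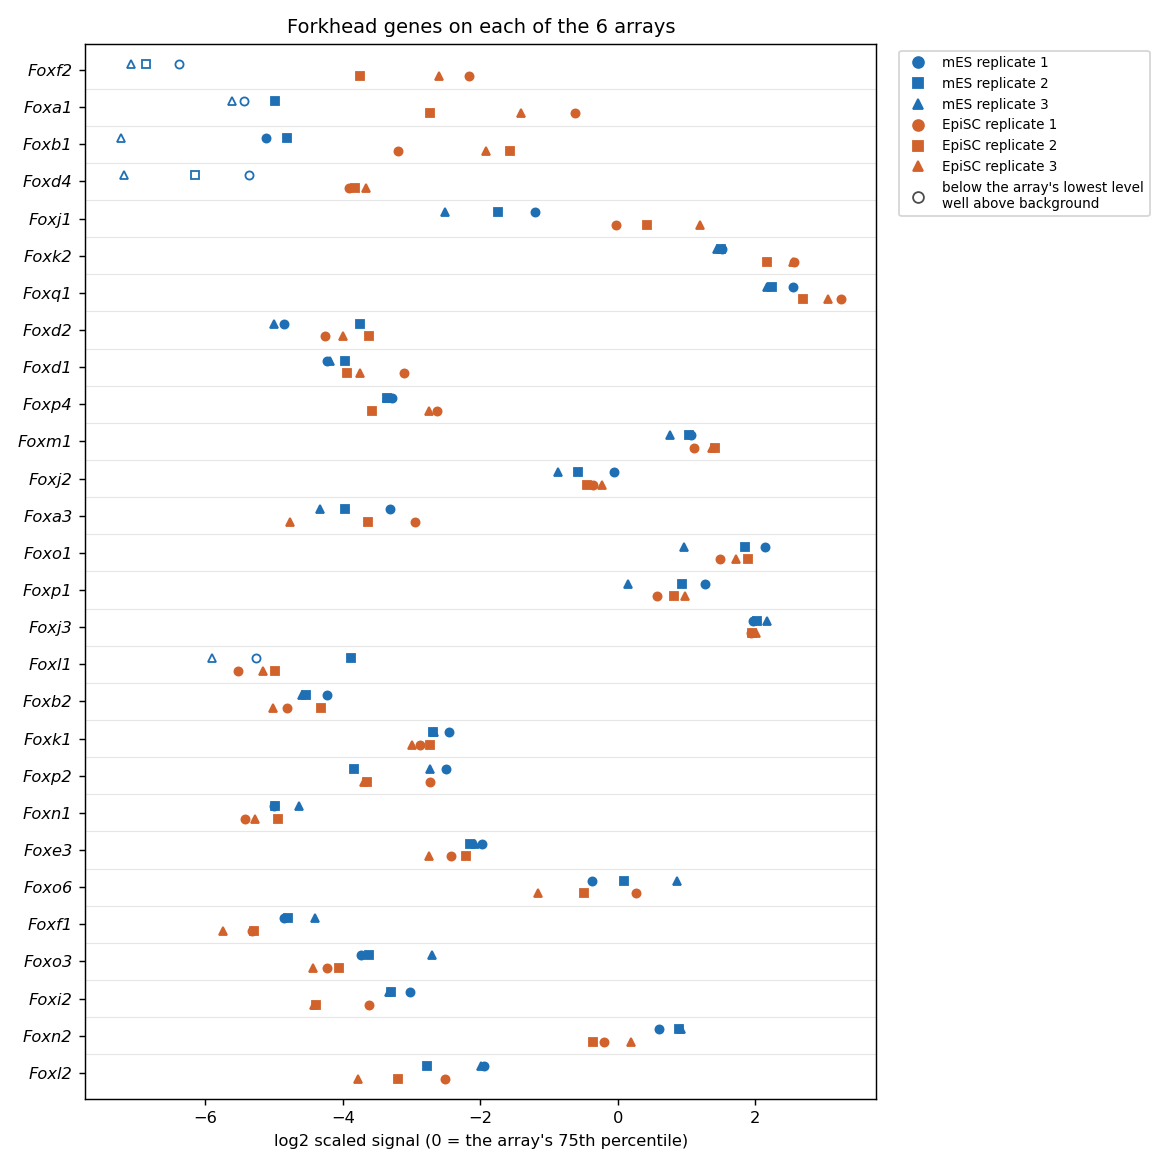
Level of 28 of the 29 tested forkhead genes on each array, as log2 signal with 0 at the array's 75th percentile, ordered by the difference between groups. Blue symbols are mES and orange symbols EpiSC arrays, the symbol shape gives the replicate, and open symbols lie below the lowest level well above background on that array; the groups stand apart by 1 or more for the 5 genes at the top and overlap or lie close for most of the others.

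RefSeq start regions (assembly GRCm38.p6, 250 bases before to 50 after an annotated start) were at hand for 21 of the 33 forkhead genes, 24 windows in all, and for 5 of the 9 called genes. The windows lie at chr13:31625566-31625865 on the plus strand for Foxf2, chr12:57546062-57546361 on the minus strand for Foxa1, chr19:24900967-24901266 on the minus strand for Foxd4, chr11:121259737-121260036 on the plus strand for Foxk2 and chr7:135410117-135410416 on the plus strand for Foxi2. They are printed 5′ to 3′ on the gene's strand, with every CG dinucleotide in capitals, because the windows of the called genes differ widely in CpG content.
Foxf2: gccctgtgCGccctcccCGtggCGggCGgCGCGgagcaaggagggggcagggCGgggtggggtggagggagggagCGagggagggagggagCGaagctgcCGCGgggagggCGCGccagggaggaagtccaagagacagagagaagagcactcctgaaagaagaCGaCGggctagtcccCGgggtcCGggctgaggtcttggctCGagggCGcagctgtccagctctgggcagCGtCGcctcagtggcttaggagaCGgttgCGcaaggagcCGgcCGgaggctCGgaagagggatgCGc
Foxa1: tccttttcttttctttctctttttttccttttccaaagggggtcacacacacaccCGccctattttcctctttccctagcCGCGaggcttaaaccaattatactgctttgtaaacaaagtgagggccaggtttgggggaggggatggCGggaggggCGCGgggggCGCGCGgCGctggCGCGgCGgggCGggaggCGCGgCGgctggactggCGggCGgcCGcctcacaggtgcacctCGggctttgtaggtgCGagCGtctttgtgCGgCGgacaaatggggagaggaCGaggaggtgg
Foxd4: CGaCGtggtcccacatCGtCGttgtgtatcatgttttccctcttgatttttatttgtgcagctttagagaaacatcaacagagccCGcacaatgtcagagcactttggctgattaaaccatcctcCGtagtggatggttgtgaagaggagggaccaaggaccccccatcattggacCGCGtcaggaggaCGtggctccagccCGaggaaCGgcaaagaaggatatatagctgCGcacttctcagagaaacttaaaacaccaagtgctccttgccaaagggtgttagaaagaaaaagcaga
Foxk2: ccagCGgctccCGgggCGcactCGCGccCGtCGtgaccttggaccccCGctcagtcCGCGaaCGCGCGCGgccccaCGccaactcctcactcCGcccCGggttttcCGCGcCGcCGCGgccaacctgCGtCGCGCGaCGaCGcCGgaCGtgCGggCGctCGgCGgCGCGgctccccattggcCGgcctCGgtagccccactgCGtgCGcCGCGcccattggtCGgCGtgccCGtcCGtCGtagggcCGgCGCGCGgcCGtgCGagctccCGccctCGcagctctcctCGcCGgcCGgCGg
Foxi2: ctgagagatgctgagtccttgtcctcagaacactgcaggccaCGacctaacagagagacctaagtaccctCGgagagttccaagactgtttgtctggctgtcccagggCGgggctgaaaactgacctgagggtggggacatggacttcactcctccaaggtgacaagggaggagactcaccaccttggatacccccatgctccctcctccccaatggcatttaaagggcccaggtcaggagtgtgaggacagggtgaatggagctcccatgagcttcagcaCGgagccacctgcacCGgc
The window of Foxk2 held 59 CG dinucleotides, 1.28 times the number its C and G content would give by chance. Foxf2 (27, ratio 0.79) and Foxa1 (26, ratio 0.93) followed, Foxd4 had 12 (ratio 0.67), and Foxi2 had 5 (ratio 0.20), the lowest ratio of the 24 windows. Ratios of at least 0.6 were found in 15 of the 24 windows (62.5%), against 35.8% of all 32851 windows, and the median ratios were 0.68 and 0.38. The forkhead core motif, searched as TGTTTAC or GTAAACA on either strand, was in the Foxa1 window alone, as GTAAACA with its first base 141 bases before the start, and 3.65% of all windows hold it. The letters AATCCACA (FOXH1), TCACACCT (T-box factors) and TGGGTGGTC (GLI factors), each searched on both strands, were in 0 of the 24 windows, and in 0.855%, 1.28% and 0.253% of all windows. A TATAAA box, also searched on both strands, was in the windows of Foxa3 and Foxp3, as in 13.6% of all windows.

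Among the forkhead genes of the endoderm and of gut and head mesenchyme, Foxf2 and Foxa1 were higher in EpiSC and Foxf1 was lower. Foxf2, which acts in the mesenchyme of the palate and gut, measured -6.38, -6.87 and -7.08 on mES replicates 1 to 3 and -2.16, -3.75 and -2.60 on EpiSC replicates 1 to 3. It was well above background on 0 of 3 mES arrays and on all 3 EpiSC arrays, and the groups lay far apart. Its level in EpiSC (mean -2.84 ± 0.82, SD, n = 3) was at least 5.21-fold higher than in mES cells (measured mean -6.77 ± 0.36, SD, n = 3; limma adjusted p = 0.00221). For this bound, each mES array counts at its lowest detected level or at the Foxf2 value, whichever is higher. Foxf2 was called in all 6 fits with 1 array left out and in all 13 other settings it could be tested in. With normexp background correction, which compresses dim signals, the difference was 1.03 on the log2 scale (adjusted p = 0.0121), smaller than this bound.

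Foxa1, an endoderm factor that opens chromatin and is closely related to Foxa2, measured -5.44, -4.99 and -5.61 in mES cells and -0.62, -2.73 and -1.40 in EpiSC. Only mES replicate 2 had it well above background among the mES arrays, and all 3 EpiSC values were higher than its value there. The difference was 3.76 ± 0.53 (13.5-fold, adjusted p = 0.00474), a size that rests partly on values below detection on mES replicates 1 and 3. The gene was called in all 6 fits with 1 array left out. Within EpiSC it ranged over 2.12, the widest range of the 29 genes in that group. With the arrays restricted to slide position 4 the difference was 3.54 and did not pass (adjusted p = 0.0545), and with normexp it was 1.81 (adjusted p = 0.0138).

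Foxa1 and Foxf2 ordered the EpiSC arrays alike, replicate 1 above 3 above 2. Foxk2, Foxq1, Foxp4 and Foxd1 had this order too. So did the 75th percentile of the processed signal, with 974, 679 and 826 on EpiSC replicates 1 to 3. The summed level of the endoderm markers had the same order, 142, 84.4 and 33.8, and lay between 1.71 and 2.22 in mES cells. Of the 9 markers 7 had this order, while Foxa2 was highest on replicate 3 (4.97, 4.13 and 5.40 on replicates 1 to 3) and Hnf4a on replicate 2. Shh, a Hedgehog ligand made by endoderm and midline tissue, measured -1.53, -3.77 and -1.16 on EpiSC replicates 1 to 3, and so had a different array on top. The part of the endoderm markers in the forkhead differences was not tested. Without the 2 arrays low in fibroblast markers, a setting chosen after the data were seen, Foxf2 and Foxa1 were the only forkhead genes called, among 7.53% of genes called in that fit.

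**Figure D2:**
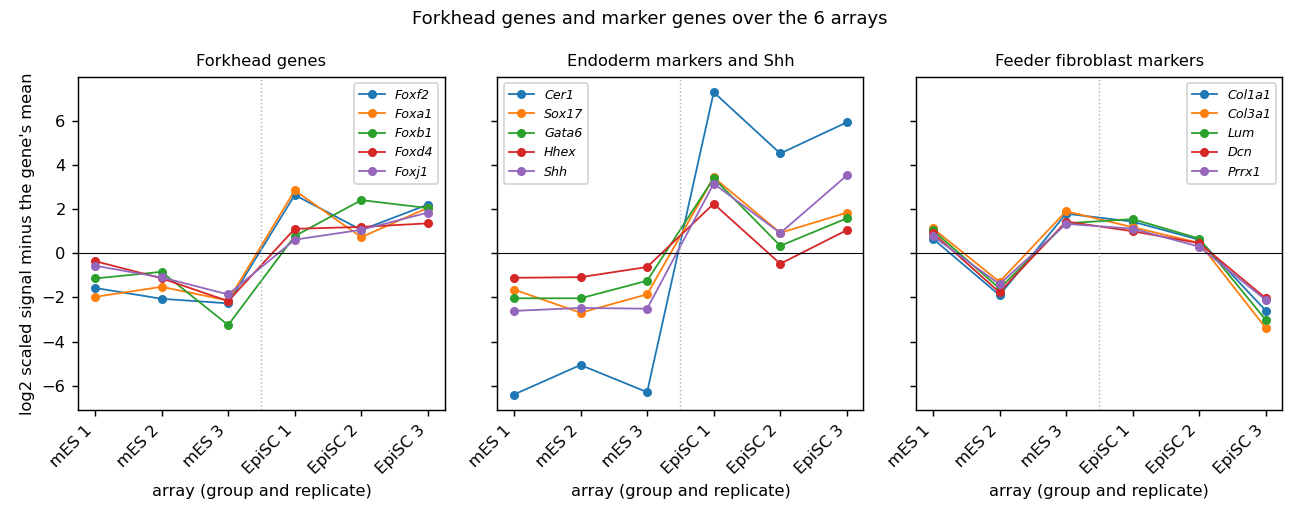
Level on each array minus the gene's mean over the 6 arrays (log2) for the 5 forkhead genes with differences of at least 1, for 4 endoderm markers with Shh, and for 5 fibroblast markers. Foxf2 and Foxa1 are highest on EpiSC replicate 1 and lowest of the EpiSC arrays on replicate 2, as Cer1, Sox17, Gata6 and Hhex are. These 4 are among the 7 of 9 measured endoderm markers with that order, and Foxa2 and Hnf4a, not shown, had another. Shh is highest on replicate 3, and the 5 fibroblast markers shown are lowest on EpiSC replicate 3 and mES replicate 2. The fibroblast marker Pdgfrb, not shown, had the EpiSC order of Foxf2 and Foxa1 (0.42, -0.27 and 0.07 on replicates 1 to 3).

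The other members of these groups differed less or not beyond the test. Foxq1, a factor of hair and stomach, measured 2.55, 2.24 and 2.17 in mES cells and 3.24, 2.69 and 3.05 in EpiSC. Its groups did not overlap, but the difference of 0.68 ± 0.21 missed the threshold (adjusted p = 0.0583). Among 14 other settings 6 called it, as did the fit without EpiSC replicate 2. Foxa3, a factor of liver and gut, had overlapping groups, with -3.31 to -4.33 in mES cells and -2.95 to -4.77 in EpiSC (0.08 ± 0.50, adjusted p = 0.912).

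Foxf1, the close relative of Foxf2 in lateral mesoderm and gut mesenchyme, went the other way. It measured -4.86, -4.80 and -4.40 in mES cells and -5.32, -5.29 and -5.74 in EpiSC, and the groups did not overlap. The difference was -0.76 ± 0.22 (1.69-fold lower, adjusted p = 0.0438), and each of the 6 fits on 5 arrays lost this call, with adjusted p from 0.0634 to 0.123. Median scaling (adjusted p = 0.0676) and quantile normalization (adjusted p = 0.135) lost it too. Both group means lay within 1 of the lowest level well above background, and that level itself was 0.70 lower in EpiSC than in mES cells (means -5.91 and -5.22). The part of this shift in the Foxf1 difference was not tested. Foxl1, of the mesenchyme under the gut epithelium, was as close to that level, with 1 mES array above background, and had overlapping groups (-0.20 ± 0.51, adjusted p = 0.783). Foxe1, of the thyroid and palate, was well above background on 2 mES arrays and 1 EpiSC array and was not tested with all 6 arrays.

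In the RefSeq annotation Foxq1, Foxf2 and Foxc1 are neighbours on chromosome 13, with 0 coding genes between them. Foxq1 and Foxc1 had differences of 0.68 and 1.41 that were not called, beside the bound given above for Foxf2, which was. On chromosome 8, Foxf1, Foxc2 and Foxl1 lie together with 1 coding gene between Foxf1 and Foxc2, and had -0.76, -0.67 and -0.20. On chromosome 4 the neighbours Foxd2 and Foxe3 had 0.57 and -0.40, and neither was called. Besides Foxc1 (adjusted p = 0.0581) and Foxc2 (adjusted p = 0.541), the forkhead genes left out by the rule had differences of 7.998 ± 0.69 for Foxa2 (adjusted p = 0.000979), 1.49 ± 0.39 for Foxd3 (adjusted p = 0.0341) and 0.42 ± 0.18 for Foxh1 (adjusted p = 0.125).

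Since FOXF and other forkhead genes are known targets of Hedgehog signalling, the genes of that pathway were set beside them. Of 13 measured, 5 were higher (38.5%, against 11.4% of all genes) and 1 was lower (7.69%, against 15.1%) in EpiSC, with a median difference of -0.06 against -0.13. Shh, well above background on 0 of 3 mES arrays, was at least 8.37-fold higher (adjusted p = 0.00372). The signal transducer Smo rose by 1.97 ± 0.26 (adjusted p = 0.00377), and the transcription factor Gli3, mostly a repressor, by 1.497 ± 0.23 (adjusted p = 0.00677). The ligand gene Dhh fell (-2.23 ± 0.36, adjusted p = 0.00739). The pathway's readout genes gave mixed values: the receptor Ptch1 had 0.94 ± 0.26 (adjusted p = 0.0403), and Gli1 had -0.14 ± 0.21 (adjusted p = 0.645).

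Of the forkhead genes of neural and other ectoderm, Foxb1 and Foxd4 were higher in EpiSC and Foxi2 was lower. Foxb1, which is expressed in the early neural tube and later in the hypothalamus, measured -5.11, -4.81 and -7.22 in mES cells and -3.19, -1.56 and -1.92 in EpiSC. The lowest mES value, on replicate 3, was below detection, and the EpiSC-5 array was the lowest of the EpiSC group, the reverse of Foxf2 and Foxa1. It was well above background on 2 of 3 mES arrays and on all 3 EpiSC arrays. The difference was 3.49 ± 0.73 (11.2-fold, adjusted p = 0.0170). It was 2.74 without mES replicate 3 (adjusted p = 0.0185) and 1.37 with normexp (adjusted p = 0.0192). The call was lost without EpiSC replicate 2 (adjusted p = 0.0530) or 3 (adjusted p = 0.0639), and when both EpiSC-7 arrays counted as 1 sample (adjusted p = 0.0540).

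Foxd4, whose frog relative keeps neural ectoderm in an immature state, measured -5.37, -6.15 and -7.18 in mES cells, below background on all 3 arrays. In EpiSC it measured -3.91, -3.82 and -3.66, a narrow range of 0.25 against 1.81 in mES cells. It was at least 2.68-fold higher in EpiSC (measured means -6.23 ± 0.91 and -3.79 ± 0.13, SD, n = 3; adjusted p = 0.0108). All 6 fits with 1 array left out called it. With normexp the difference was 0.38 on the log2 scale, smaller than the bound of 2.68-fold, and did not pass (adjusted p = 0.0715).

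Foxi2, expressed in cranial ectoderm, measured -3.02, -3.30 and -3.33 in mES cells and -3.62, -4.39 and -4.42 in EpiSC. The groups did not overlap, and the 2 EpiSC-7 arrays were the lowest. The difference of -0.92 ± 0.26 (1.90-fold lower) had an adjusted p of 0.0441, and only the fit without EpiSC replicate 1 kept the call when an array was left out. Without EpiSC replicate 3 it was -0.79 (adjusted p = 0.131).

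Foxd1, of kidney stroma and forebrain, depended on its probe. The probe with the higher signal measured -4.23, -3.96 and -4.19 in mES cells and -3.11, -3.93 and -3.75 in EpiSC, a difference of 0.53 ± 0.25 (adjusted p = 0.162). The second probe, for the same RefSeq accession, measured -5.64, -5.75 and -5.32 in mES cells, below background on all 3 arrays, and -3.65, -4.57 and -4.23 in EpiSC. By that probe Foxd1 was at least 2.10-fold higher (adjusted p = 0.0131 over all probes). Both probes had EpiSC replicate 1 as the highest and replicate 2 as the lowest of the EpiSC arrays.

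Among the other FOXB, FOXD and FOXE genes tested, none passed. Foxd2, which is expressed in kidney and head mesenchyme, had a difference of 0.57 ± 0.37 (adjusted p = 0.284). Foxe3, needed in the lens, had -0.40 ± 0.19 (adjusted p = 0.171), and Foxb2 had -0.26 ± 0.24 (adjusted p = 0.437). Of these, Foxe3 had groups that did not overlap. Foxi1, of the inner ear, was well above background on 0 of the 6 arrays, and Foxn4, of retinal progenitors, was on 2 arrays of each group.

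**Figure D3:**
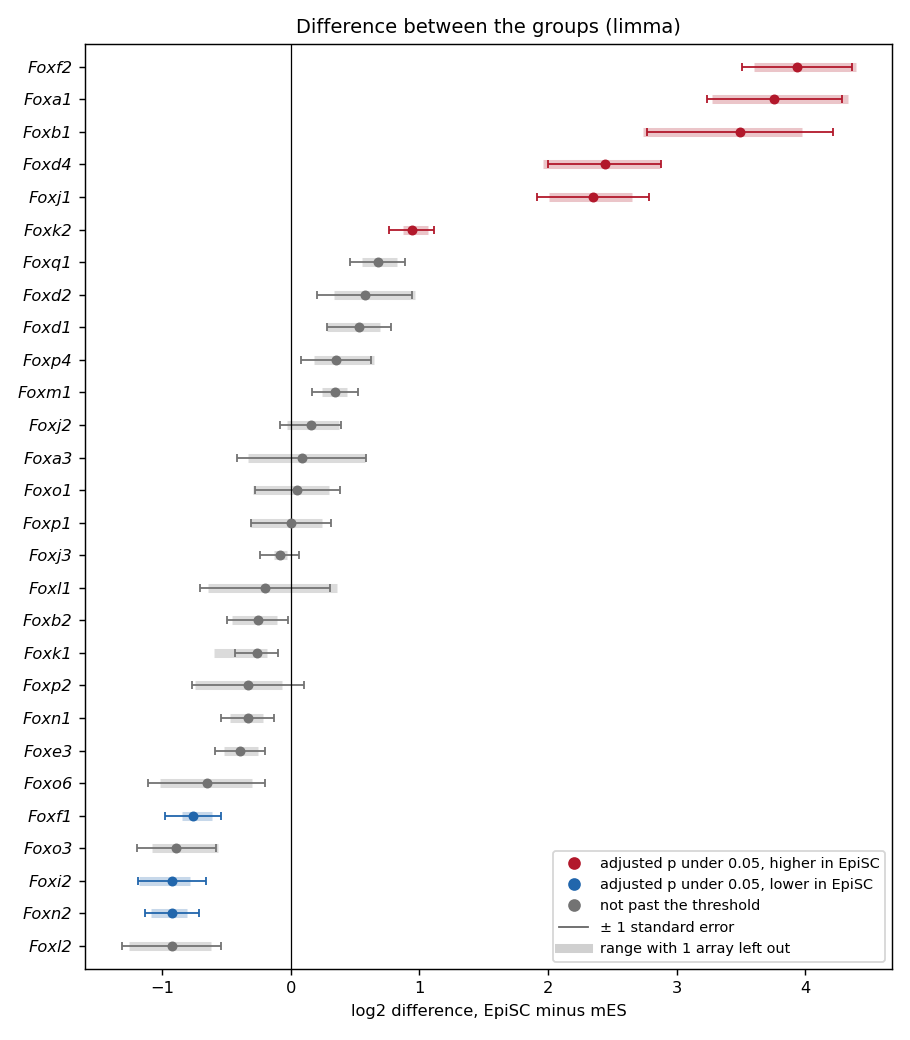
Difference between EpiSC and mES (log2) of 28 of the 29 tested forkhead genes, with bars of 1 standard error and shaded ranges of the fits with 1 array left out. Each of those fits picked a gene's brightest probe again, so that the range of Foxk1 covers more than 1 probe. Red marks the 6 genes called higher, blue the 3 called lower and grey the rest; the ranges of the called genes stay on 1 side of 0, and the 3 decreases lie between -0.76 and -0.93.

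Foxj1, which switches on the genes of motile cilia, measured -1.21, -1.74 and -2.51 in mES cells and -0.03, 0.42 and 1.20 in EpiSC. It was well above background on all 6 arrays, and the groups lay over 1 apart. The difference was 2.35 ± 0.43 (5.09-fold, adjusted p = 0.0116), and all 6 fits with 1 array left out called it. With normexp it was 2.02 (adjusted p = 0.00566). The EpiSC-5 array was the lowest EpiSC array, and passage 25 of EpiSC-7 was higher than passage 20 by 0.78. Passage and array position cannot be told apart here, since the 2 arrays lay at positions 4 and 1 of a slide.

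The genes that FOXJ1 works with and on did not move as a block. Of 15 measured genes of the FOXJ1 and motile cilium list, 4 were higher (26.7%, against 11.4% of all genes), 3 were lower (20.0%, against 15.1%), and the median difference was 0.32. Rfx3, a partner transcription factor, rose by 2.95 ± 0.65 (adjusted p = 0.0204), the axonemal dynein gene Dnah11 by 2.08 ± 0.53 (adjusted p = 0.0323) and the radial spoke gene Rsph9 by 1.59 ± 0.26 (adjusted p = 0.00731). Rfx3 was well above background on 2 of 3 mES arrays and Dnah11 on 1, so these 2 sizes rest partly on values below detection. The partner factor Rfx2 (-2.59 ± 0.42, adjusted p = 0.00751), the radial spoke gene Rsph1 (-1.68 ± 0.33, adjusted p = 0.0141) and the tektin gene Tekt2 (-1.54 ± 0.26, adjusted p = 0.00857) fell. Foxj2 (0.15 ± 0.24, adjusted p = 0.658) and Foxj3 (-0.09 ± 0.15, adjusted p = 0.694) were well above background throughout. Foxj3 had the narrowest EpiSC range of the 29 genes, from 1.93 to 2.01. Its second probe entering had 0.27 (adjusted p = 0.412).

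Among the FOXO genes, which growth factor signalling through AKT keeps out of the nucleus, none was called. Foxo1 measured 2.15, 1.85 and 0.96 in mES cells and 1.49, 1.90 and 1.72 in EpiSC. These groups overlapped, mES replicate 3 being the lowest array, and the 2 Foxo1 probes gave 0.05 ± 0.33 and 0.18 ± 0.30. Foxo3 measured -3.73, -3.62 and -2.70 in mES cells and -4.23, -4.06 and -4.44 in EpiSC. Its groups did not overlap, and the difference of -0.89 ± 0.31 missed the threshold (adjusted p = 0.0743). Foxo6, described mainly in brain, was well above background throughout but spread widely, with -0.38, 0.10 and 0.86 in mES cells and 0.26, -0.49 and -1.17 in EpiSC (-0.65 ± 0.45, adjusted p = 0.313).

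The regulators and targets of FOXO proteins were also measured. Of 21 regulators, 6 were higher (28.6%, against 11.4% of all genes) and 4 lower (19.0%, against 15.1%), with a median difference of 0.29. Irs1, an adaptor of the insulin receptor, rose by 2.25 ± 0.41 (adjusted p = 0.0107), the kinase gene Sgk3 by 1.71 ± 0.35 (adjusted p = 0.0167) and Akt1 by 1.20 ± 0.16 (adjusted p = 0.00406). Both kinases phosphorylate FOXO proteins. Sgk1, another such kinase (-1.16 ± 0.34, adjusted p = 0.0494), the deacetylase gene Sirt1 (-1.15 ± 0.19, adjusted p = 0.00746) and Usp7, which removes ubiquitin from FOXO proteins (-0.81 ± 0.15, adjusted p = 0.0122), fell.

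Of 25 measured FOXO targets, 6 were lower (24.0%, against 15.1% of all genes) and 1 was higher (4%, against 11.4%), and the median was -0.38 against -0.13 for all genes. The share called in either direction, 28.0%, was near the 26.5% of all genes. The muscle ubiquitin ligase gene Trim63 (-3.997 ± 0.48, adjusted p = 0.00295), the cell cycle inhibitor gene Cdkn1a (-1.61 ± 0.31, adjusted p = 0.0132) and Bbc3, which promotes apoptosis (-1.48 ± 0.26, adjusted p = 0.0105), fell. The other muscle ubiquitin ligase gene, Fbxo32, rose by 1.52 ± 0.25 (adjusted p = 0.00773). Cdkn1a and Bbc3 are also known targets of p53.

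Foxk2 was higher in EpiSC. FOXK proteins repress autophagy genes and bring the BAP1 deubiquitinase complex to DNA. By its brightest probe Foxk2 measured 1.52, 1.505 and 1.45 in mES cells and 2.56, 2.17 and 2.55 in EpiSC. The mES values lay within 0.07 of each other, and all EpiSC values were higher. The difference was 0.94 ± 0.18 (1.92-fold, adjusted p = 0.0126), called in all 6 fits with 1 array left out. The 2 other entering probes for the same accession gave 0.44 ± 0.25 (adjusted p = 0.239) and 0.04 ± 0.20 (adjusted p = 0.885), and the mean of the 3 probes did not pass (0.47, adjusted p = 0.0948). A further probe, for another transcript accession, did not enter. It measured -3.21 and -3.39 on mES replicates 1 and 2 and -7.30 on mES replicate 3, and -6.83, -6.07 and -8.08 in EpiSC, below background on all 3 EpiSC arrays.

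Foxk1 had its probes the other way round. Its brightest probe had -0.26 ± 0.17 (adjusted p = 0.284 over all probes), while the other probes fell, with -0.59 ± 0.16 (adjusted p = 0.0417) and -0.62 ± 0.18 (adjusted p = 0.0467). All 3 probes had groups that did not overlap, which held for 48.8% of all genes. When each probe was tested by itself, 26.0% of all probes passed. The lower pair matches a different RefSeq accession from the brightest probe. Of 11 measured partners of FOXK proteins, 3 fell (27.3%, against 15.1% of all genes) and 1 rose (9.09%, against 11.4%), with a median of -0.45. The BAP1 complex subunit gene Asxl2 (-1.59 ± 0.26, adjusted p = 0.00794) and the corepressor gene Sin3a (-0.72 ± 0.18, adjusted p = 0.0279) were among those that fell, while Mbd5 was at least 2.04-fold higher (adjusted p = 0.00242). Bap1 itself had 0.13 ± 0.17 (adjusted p = 0.573).

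**Figure D4:**
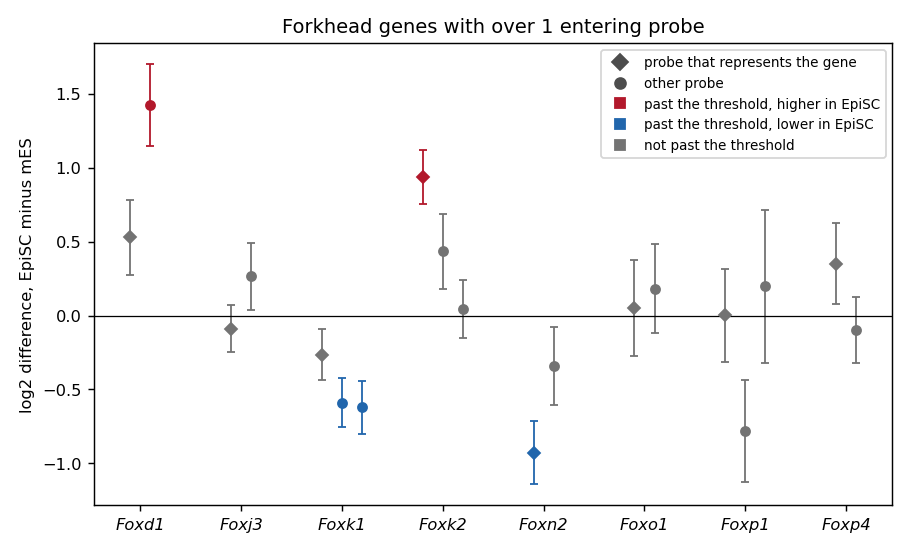
Difference between EpiSC and mES (log2, bars of 1 standard error) for each entering probe of the 8 forkhead genes with more than 1. Diamonds are the probe that represents the gene, circles its other probes, and colour gives the call with every probe tested by itself; Foxk2 and Foxn2 were called by 1 probe alone, and Foxd1 and Foxk1 only by probes that do not represent them.

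Foxm1, which drives genes of mitosis, measured 1.07, 1.04 and 0.76 in mES cells and 1.11, 1.41 and 1.37 in EpiSC. The groups did not overlap, but by little, and the difference of 0.34 ± 0.18 did not pass (adjusted p = 0.198). Of 20 measured FOXM1 targets, 3 fell (15.0%, against 15.1% of all genes) and 0 rose (against 11.4%), with a median of -0.20, so that the share that fell was that of the background. The targets that fell were the cyclin gene Ccnb1 (-1.12 ± 0.24, adjusted p = 0.0183), the spindle gene Hmmr (-0.98 ± 0.18, adjusted p = 0.0106) and the ubiquitin-conjugating enzyme gene Ube2c (-0.63 ± 0.17, adjusted p = 0.0389). Plk1 and Aurkb, other mitotic targets, had 0.24 ± 0.18 and 0.28 ± 0.19 and did not pass.

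Foxn2 was lower in EpiSC. It measured 0.60, 0.89 and 0.92 in mES cells and -0.19, -0.36 and 0.19 in EpiSC, and the groups did not overlap. The difference was -0.93 ± 0.21 (1.90-fold lower, adjusted p = 0.0224), and 4 of the 6 fits on 5 arrays lost the call (adjusted p up to 0.0741, without EpiSC replicate 1), as did median scaling (adjusted p = 0.0598). The called probe is not annotated to a RefSeq transcript. A dimmer probe that is gave -0.34 ± 0.26 (adjusted p = 0.363), and the mean of both probes did not pass (-0.63, adjusted p = 0.0616). Foxl2, the ovarian granulosa cell factor, had as large a difference (-0.93 ± 0.39), but with overlapping groups, -1.94 to -2.78 in mES cells and -2.51 to -3.78 in EpiSC (adjusted p = 0.120). Foxn1, the factor of thymic epithelium, had -0.34 ± 0.20 (adjusted p = 0.256) near the detection level.

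The FOXP genes, which act in brain, lung, heart and lymphocytes, were not called. A spliced form of FOXP1 is known from pluripotent cells, and the 3 Foxp1 probes gave 0.00 ± 0.31, -0.78 ± 0.35 and 0.20 ± 0.52, none of them past the threshold. Which exons the probes lie in is not known here. The second of these probes measured 0.63, 0.48 and -0.53 in mES cells and -0.82, -0.25 and -0.70 in EpiSC, so that mES replicate 3 lay among the EpiSC values. Foxp4 had 0.35 ± 0.27 (adjusted p = 0.364) and -0.10 at its second probe, and Foxp2 -0.33 ± 0.43 (adjusted p = 0.591). Foxp3, of regulatory T cells, was well above background on 1 of the 6 arrays.

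The EpiSC lines ordered the 5 genes with differences of at least 1 in both ways. EpiSC-5 minus the mean of both EpiSC-7 arrays was 1.45 for Foxa1 and 1.01 for Foxf2, but -1.45 for Foxb1, -0.84 for Foxj1 and -0.17 for Foxd4. These are values of 1 array against 2, with no test. At position 1 of the slides, where 1 array of each group lay, the difference of Foxj1 was 3.71. It was 1.67 with only the arrays at position 4 and 2.35 with all arrays. The mES values of Foxf2, Foxa1, Foxb1 and Foxd4 at position 1 lay below the lowest level well above background, and no size is given for them there.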

How the data were processed

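Cy3-labelled total RNA from the 6 cultures was measured on Agilent arrays in 1 colour (45018 spots). The deposited scanner files give the intensity of every spot, linear and adjusted for background within its array, from Agilent Feature Extraction 9.1.3.1 per the file headers. The authors' deposited value table holds the same intensity, rounded (at most 0.00716 apart on the log2 scale), and is therefore linear, uncentred and no ratio. Its medians were 78.9, 84.9 and 68.7 on the mES arrays and 117, 80.25 and 82.95 on the EpiSC arrays, each in the order of replicates. The build of the probes was not given in the sources used here.

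Without control and outlier spots, log2 signals were scaled on each array's 75th percentile, and repeat spots were averaged. RefSeq accessions (assembly GRCm38.p6) named 22951 of 41174 probes and 37 of the 49 forkhead probes, and the rest took the symbol of probes with the same file name, or kept that name. Entering probes had at most 1 missing value a group, and the brightest on average stands for its gene. The groups were tested in limma 3.58.1 (R 4.3.3; lmFit and eBayes, two-sided, no covariate), with Benjamini-Hochberg adjustment over 20118 genes and a threshold of 0.05. Adjusted p-values are limma's throughout. The scripts were tested on simulated data.

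The forkhead genes and all lists were chosen with earlier results of these data known. Any forkhead gene could be named, and at most 3 called genes of a list in each direction, besides values of others. Counts cover all tested forkhead genes, of which 1 is not reported here by itself. There were 20 alternatives. Each slide, also a scan, held 1 group. Cultures are labelled by line and passage alone, so that p-values cover the spread of these 6 samples, which may be technical.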

Additional observations from a re-analysis of the deposited data

How the results depend on the processing

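The differences of the 9 called forkhead genes kept their sign under each of the 20 alternatives in which they could be tested. The count called higher stayed at 5 to 7, except that it was 9 with the slide as a random block (Foxd2, Foxm1 and Foxq1 added), 3 when every array had to be above background (Foxf2, Foxa1, Foxb1 and Foxd4 are then not tested), 3 with only arrays at position 4, and 2 with only the 4 arrays high in fibroblast markers, a setting chosen after seeing the data. The count called lower was 5 with normexp, 1 with median scaling, 1 with a mean-variance trend, 9 with the slide block, 1 at position 4 (Foxn4, not tested with all arrays), 1 with the EpiSC-7 arrays averaged, 0 with the 4 arrays, and 0 to 2 with 1 array left out, or at most 1 of the 29 genes tested with all arrays. The count over all genes was 5341, or 26.5% of those tested. It was 8584 (30.7%) with no filter, 2654 (12.7%) at position 4 and 1551 (7.53%) with the 4 arrays. With 1 array left out it was 2865 to 4849 (14.0% to 23.7%). The slide block gave 11489 (57.1%), with a within-slide correlation of -0.68, which lowers the errors where a slide holds 1 group. Shares were 31.5% with normexp, 29.0% with a mean-variance trend and 21.7% with the EpiSC-7 arrays averaged. When every array had to be above background the share was 28.2%.

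The genes that changed sign were not called in those fits: Foxd2 (-0.0105) and Foxa3 (-0.120) with normexp, Foxj3 with quantile normalization (0.0180), median scaling (0.00124) and the mean of its probes (0.0889), Foxa3 (-0.191) and Foxl1 (0.216) with the slide block, and Foxj2 (-0.0848), Foxo1 (-0.303), Foxp1 (-0.412) and Foxo6 (0.0323) at position 4. Foxp1 also turned with the mean of its probes (-0.194), the value table (-0.00210), the EpiSC-7 arrays averaged (-0.0521) and the 4 arrays (-0.0141), Foxo1 with the EpiSC-7 arrays averaged (-0.00197), and Foxl1 with the 4 arrays (0.329). With 1 array left out the differences ranged from -0.0289 to 0.375 for Foxj2, -0.334 to 0.576 for Foxa3, -0.294 to 0.2996 for Foxo1, -0.319 to 0.245 for Foxp1 and -0.648 to 0.361 for Foxl1. The causes were not tested. No paired analysis was possible because the numbers of the replicates come from the order of deposit. Signal over background limits dim genes such as Foxf1, Foxl1 and Foxn1.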

Other observations

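Other forkhead genes stand on the array under older names that the rule for names does not reach. Ches1, now Foxn3, had 3 entering probes with differences of -0.16, -0.12 and 0.00 (limma adjusted p = 0.614 for the gene by its brightest probe). Mllt7, now Foxo4, another FOXO gene, measured -2.68, -2.87 and -3.31 in mES cells and -3.50, -3.01 and -3.43 in EpiSC, with overlapping groups (-0.36 ± 0.24, adjusted p = 0.292). Fkhl18, now Foxs1, measured -1.37, -1.64 and -1.58 in mES cells and -1.87, -1.69 and -1.99 in EpiSC. Its groups did not overlap, and the difference of -0.32 ± 0.18 did not pass (adjusted p = 0.203).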
